A study of Mus musculus with 4 samples.

Results

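The annexin genes Anxa1, Anxa2, Anxa3, Anxa4, Anxa5, Anxa6, Anxa7, Anxa11 and Anxa13 were followed through development of the mouse fetal pancreas. They were chosen by name from 12 listed mouse annexins of the A subfamily, and Anxa8, Anxa9 and Anxa10 were left outside. All 9 were present among the 54532 deposited gene identifiers, which were matched to symbols through the GENCODE mouse M21 annotation. Annexins are cytosolic proteins that bind acidic phospholipids of membranes when calcium rises. They share a core of conserved repeats, and differ in a short or long N-terminal tail through which several bind EF-hand proteins of the S100 and ALG-2 families. In secretory epithelia, annexins are known on granule, endosome and plasma membranes, where they have been studied in exocytosis, membrane traffic and repair of plasma membrane wounds.

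The samples were labelled as fetal pancreas epithelium of wild-type mice of the C57BL/6 strain. The 4 stages, in embryonic days, were E11.5 and E13.5, then E15.5 and E18.5, with 1 labelled sample each. The labels do not say how the epithelium was isolated, how many fetuses were pooled or of which sex, and the series' design text writes E18 for the oldest stage. RNA was sequenced, and each gene's level is the authors' mean in FPKM, a density of sequenced fragments corrected for exon length and library depth, rescaled here by the median ratio over 9884 genes that reached 1 FPKM in all 4 stages. By their printed digits, the deposited means are averages of 2 libraries with whole read numbers, and the 2 values were solved for every annexin at every stage. Values below are therefore means ± SD with n = 2 libraries per stage. Whether the 2 libraries came from separate embryos is not stated in the labels, so the SD and every p-value cover no more than library-to-library spread, which may be technical.

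The libraries were estimated at 13641231 to 17906252 reads each. Their spread within a stage was 1.24 to 1.40 times counting error. All 12 genes of a pancreatic epithelium marker list reached 1 FPKM at the 3 later stages, and 11 of the 12 did so at E11.5. Their summed level was lowest at E11.5: the sums from the youngest to the oldest stage were 975, 4138, 11277 and 5785 FPKM. Of these sums Cpa1 alone gave 2.21, 1539, 7935 and 1647 FPKM. The defining gene Pdx1 was at 2.93 FPKM at E11.5 and 79.0 at E13.5. Not every gene of the list was lowest at E11.5. Krt19 was at 83.7 FPKM there, against 76.5 at E13.5 and 82.4 at E15.5. Sox9 was at 49.5 FPKM at E11.5 and 48.4 at E15.5. RNA of other cells was present, and markers of mesenchyme, of neurons and neural crest, and of erythroid cells had their highest sums in the youngest sample. Summed levels from the youngest to the oldest stage were 275, 51.3, 48.7 and 85.6 FPKM for 12 mesenchyme markers. The same sums for 9 markers of neurons and neural crest were 1237, 27.3, 22.7 and 53.7 FPKM, and those for 10 erythroid markers were 9771, 265, 292 and 638 FPKM. Other lists had their highest sums later. Sums for 10 leukocyte markers were 86.3, 19.9, 193 and 115 FPKM, of which C1qa alone gave 5.13, 13.3, 176 and 66.4 FPKM. Most of the other leukocyte markers went the other way. Ptprc, Coro1a, Csf1r, C1qb, Adgre1, Laptm5 and Tyrobp were each highest at E11.5, Cd68 at E15.5 and Lyz2 at E18.5. For 6 platelet markers they were 5.56, 0.820, 1.48 and 12.2 FPKM. The sum of 6 mesothelium markers was highest at E18.5, at 220 FPKM, of which Krt19 gave 217. Only 1 of 10 endothelial markers reached 1 FPKM at any stage. In bulk tissue, fewer cells of a type and less RNA per cell cannot be told apart.

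RefSeq (GRCm38.p6) listed promoters for 6 of the 9 genes: Anxa1, Anxa2, Anxa4, Anxa5, Anxa7 and Anxa11. The 250 bases before the start are shown for 4 genes that carried the largest levels or differences described below, 5′ to 3′ on the strand of the gene. Capitals mark exact matches, on either strand, to TATAAA (the TATA box), TGAGTCA (the AP-1 element), GGGCGG (the GC box), CCAAT (the CCAAT box), CATTCC (the TEAD element) or CAGCTG (an E-box), which were chosen after the sequences had been seen.
Anxa1, chr19:20390672-20390921, minus strand: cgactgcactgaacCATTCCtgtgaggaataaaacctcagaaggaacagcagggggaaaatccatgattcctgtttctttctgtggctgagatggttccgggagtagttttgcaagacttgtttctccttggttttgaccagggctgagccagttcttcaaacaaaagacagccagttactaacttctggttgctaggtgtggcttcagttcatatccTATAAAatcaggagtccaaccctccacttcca
Anxa2, chr9:69453433-69453682, plus strand: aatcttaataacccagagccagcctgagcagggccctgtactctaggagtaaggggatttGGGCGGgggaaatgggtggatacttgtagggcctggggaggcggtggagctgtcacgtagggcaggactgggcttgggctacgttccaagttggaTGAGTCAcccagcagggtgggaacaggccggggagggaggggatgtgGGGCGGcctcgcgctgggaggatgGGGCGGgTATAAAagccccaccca
Anxa4, upstream start, chr6:86793585-86793834, minus strand: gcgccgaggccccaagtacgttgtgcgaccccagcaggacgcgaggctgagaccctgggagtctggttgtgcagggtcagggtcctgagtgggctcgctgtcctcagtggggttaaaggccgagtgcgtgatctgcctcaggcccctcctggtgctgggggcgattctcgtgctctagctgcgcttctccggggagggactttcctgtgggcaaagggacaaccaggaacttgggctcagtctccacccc
Anxa5, chr3:36475888-36476137, minus strand: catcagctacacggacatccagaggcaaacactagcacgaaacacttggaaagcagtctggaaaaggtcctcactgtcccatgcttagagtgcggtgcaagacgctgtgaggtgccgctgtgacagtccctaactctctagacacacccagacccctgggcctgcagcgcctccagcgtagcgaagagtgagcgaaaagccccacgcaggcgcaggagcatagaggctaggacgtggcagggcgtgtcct

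The Anxa1 window held TATAAA 32 bases and CATTCC 236 bases before the start. The Anxa2 window held TATAAA 17 bases and TGAGTCA 95 bases before the start, with GGGCGG at 24, 48 and 190 bases. A second, downstream start is listed for Anxa4, and its window, not shown, held CAGCTG 161 bases before the start. None of the 6 motifs occurred in the windows of Anxa4's upstream start and Anxa5. Their GC contents, in that order, were 64.8% and 58.8%, against 46% for Anxa1, 62.4% for Anxa2 and a median of 52.4% over all 32851 promoters in the table. Among those promoters, 12.4% held TATAAA, 4.46% TGAGTCA, 32.7% GGGCGG and 12.6% CATTCC. A match describes the letters and is not a binding site.

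The summed level of the 9 annexins was highest at E18.5. It went from 177 ± 2.04 FPKM (E11.5) through 202 ± 8.16 (E13.5) and 253 ± 0.203 (E15.5) to 866 ± 1.31 (E18.5). As a share of the summed FPKM of all genes this was 0.0575%, 0.0598%, 0.0484% and 0.187% in the same order, so the share was lowest at E15.5 although the scaled sum was not. Anxa5 and Anxa4 changed places within the family. Anxa5 supplied 47.5% of the family sum at E11.5, 19.2% and 19.4% in the middle stages, and 49.0% at E18.5. Anxa4 supplied 3.43% at E11.5, and 33.8% and 34.0% in the middle stages. Anxa2 held between 16.5% and 25.9% at every stage. Anxa13, near the bottom at E11.5, made up 7.94% at E15.5.

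**Figure D1:**
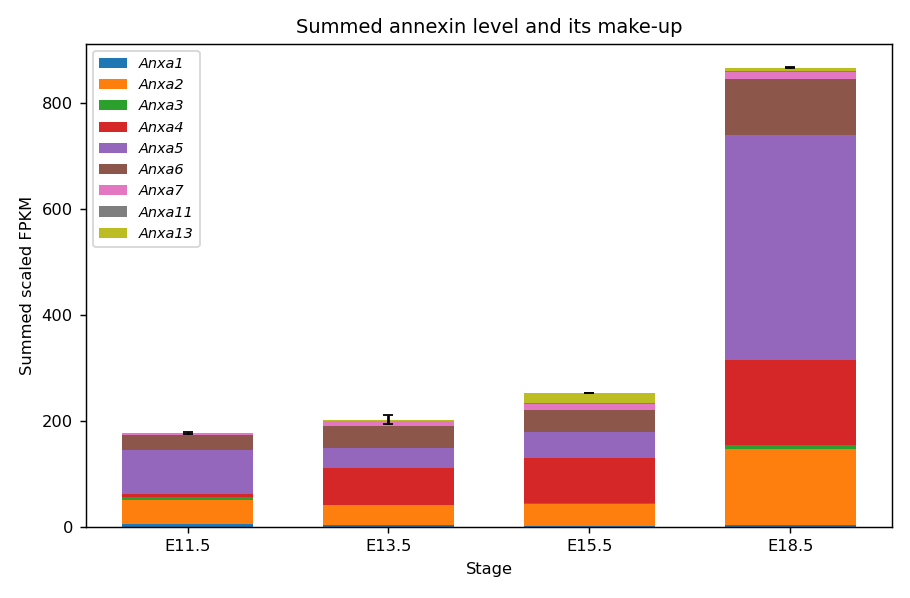
Stacked bars give the summed level of the 9 annexins (scaled FPKM) at the 4 stages, with 1 colour per gene and an error bar for the SD of the sum over 2 libraries. The total is 866 FPKM at E18.5 against 253 at E15.5, and Anxa5 is the largest segment at E11.5 and E18.5 while Anxa4 is the largest at E13.5 and E15.5.

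From high to low, the order at E11.5 was Anxa5, Anxa2, Anxa6, Anxa4, Anxa1, Anxa3, Anxa7, Anxa11 and Anxa13. The library values of the last 2 overlapped, and all other neighbours were apart. At E13.5 the order was Anxa4, Anxa6, Anxa5, Anxa2, Anxa7, Anxa1, Anxa13, Anxa11 and Anxa3, with overlap between Anxa6 and Anxa5 and between Anxa5 and Anxa2. At E15.5 it was Anxa4, Anxa5, Anxa2, Anxa6, Anxa13, Anxa7, Anxa11, Anxa1 and Anxa3, with overlap between Anxa11 and Anxa1 and between Anxa1 and Anxa3. At E18.5 it was Anxa5, Anxa4, Anxa2, Anxa6, Anxa7, Anxa3, Anxa13, Anxa1 and Anxa11, with no overlap between neighbours. At E18.5 the level of Anxa5 exceeded that of 99.2% of the 14838 named genes that reached 1 FPKM at any stage.

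Anxa1 and Anxa2 bind S100 proteins through their N-terminal tails. Anxa1 (chromosome 19, 20373428 to 20390944, minus strand, mm10) encodes a glucocorticoid-regulated protein known for limiting inflammation and for binding S100a11. Its 2 library values were 4.98 and 5.16 FPKM (E11.5), 3.79 and 3.25 (E13.5), 0.357 and 0.756 (E15.5) and 3.73 and 3.51 (E18.5). The E15.5 libraries were the lowest, and no other stage overlapped them. The 2 values at E15.5 stood on 12 and 22 reads. Anxa2 (chromosome 9, 69453620 to 69491795, plus strand) encodes the annexin that joins S100a10 in a complex at the plasma membrane, where it anchors actin and binds plasminogen. Its library values were 47.4 and 44.3 FPKM (E11.5), 36.5 and 39.5 (E13.5), 43.7 and 42.8 (E15.5) and 141 and 144 (E18.5). Both E18.5 libraries were above all 6 earlier ones. For Anxa2, Anxa5 and Anxa6 at E18.5 and Anxa4 at E13.5 and E18.5, the 2 values were solved among pairs within 25% of each other, which bounds their SD.

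Anxa5 and Anxa6 are widely expressed annexins. Anxa5 (chromosome 3, 36448923 to 36475894, minus strand) encodes the phosphatidylserine-binding protein that is used as a label of dying cells and that forms lattices on damaged membrane. The libraries held 83.3 and 84.9 FPKM (E11.5), 37.4 and 40.4 (E13.5), 49.4 and 48.6 (E15.5) and 428 and 422 (E18.5). The E18.5 libraries were the highest, the E11.5 libraries came next, and E13.5 and E15.5 were lowest without overlapping each other. Anxa6 (chromosome 11, 54979108 to 55033445, minus strand) encodes an annexin with a duplicated core, known from endosomes and cholesterol traffic. Measured in each library, the gene was at 27.9 and 27.1 FPKM (E11.5), 40.0 and 42.7 (E13.5), 39.9 and 41.0 (E15.5) and 108 and 105 (E18.5). E13.5 and E15.5 overlapped, E11.5 was below them and E18.5 above. Anxa3 (chromosome 5, 96793339 to 96845966, plus strand) encodes an annexin known from neutrophil granules. Its library values were 4.63 and 4.42 FPKM (E11.5), 0.503 and 0.374 (E13.5), 0.447 and 0.443 (E15.5) and 8.47 and 7.35 (E18.5). The gene was thus low in both libraries of the middle stages, which overlapped, and higher in all 4 libraries of the first and last stage.

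Anxa4 and Anxa13 are annexins of polarized epithelia. Anxa4 (chromosome 6, 86736840 to 86793584, minus strand) encodes a small annexin abundant in secretory epithelia and known to bind granule membranes. Levels in the 2 libraries were 6.25 and 5.91 FPKM (E11.5), 67.3 and 69.6 (E13.5), 84.8 and 87.3 (E15.5) and 158 and 163 (E18.5). These scaled levels were higher at each later stage with no overlap, although with equal totals E15.5 was below E13.5, over a 26.4-fold range. Anxa13 (chromosome 15, 58341471 to 58389244, minus strand) encodes a myristoylated annexin known from the apical and basolateral traffic of intestine and kidney epithelium; the M21 annotation gives the locus no coding transcript. Its library values were 0.0810 and 0.166 FPKM (E11.5), 1.82 and 2.24 (E13.5), 21.4 and 18.7 (E15.5) and 6.76 and 5.86 (E18.5). The E15.5 libraries were the highest and E18.5 the next, with no overlap between stages. The E11.5 values stood on 2 and 4 reads and those of E15.5 on 372 and 282.

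Anxa7 and Anxa11 have long N-terminal tails that bind the EF-hand protein ALG-2. Anxa7 (chromosome 14, 20455260 to 20480133, minus strand) encodes synexin, known for aggregating chromaffin granules and for binding sorcin. In the libraries it was at 3.81 and 3.54 FPKM (E11.5), 8.34 and 8.77 (E13.5), 12.2 and 12.9 (E15.5) and 12.4 and 13.1 (E18.5). The scaled levels were in ascending order, with E15.5 and E18.5 overlapping; with equal totals E15.5 was below E13.5. Anxa11 (chromosome 14, 25842156 to 25886804, plus strand) encodes a protein that binds S100a6 and tethers RNA granules to lysosomes. Its library values were 0.224 and 0.122 FPKM (E11.5), 0.936 and 1.32 (E13.5), 0.582 and 0.542 (E15.5) and 1.54 and 1.32 (E18.5), on 9 to 92 reads each. It was the least expressed of the 9 annexins at E18.5 and the least certain of them. Of its 50-base windows 14.6% occur in Gm2260 or Gm2274 transcripts, and Anxa11os overlaps 113 of its exon bases on the other strand. For the other 8 annexins at most 1.79% of windows were shared, and at most 112 exon bases overlapped another gene.

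**Figure D2:**
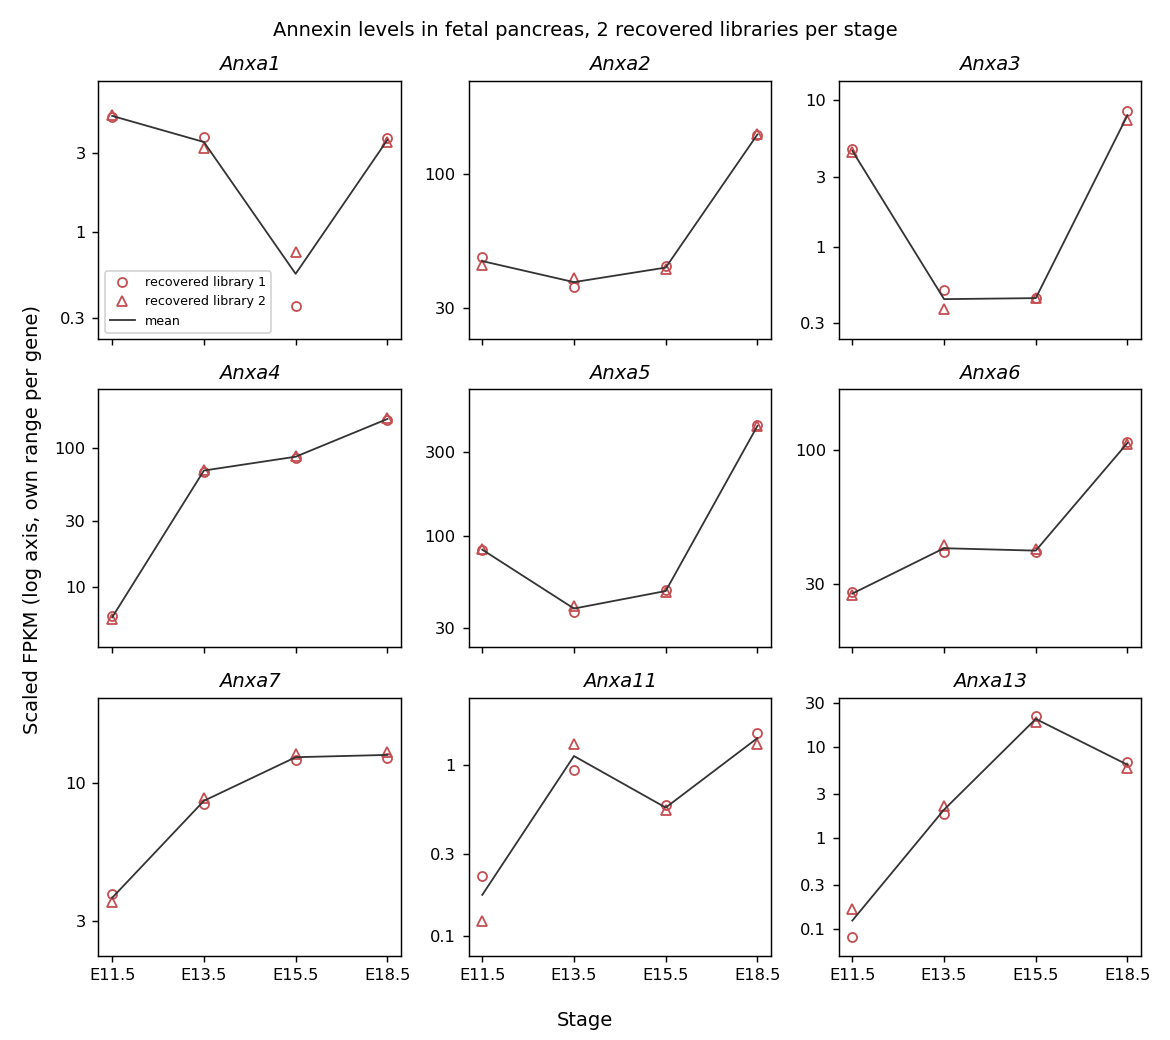
Each panel gives 1 annexin, with the level on the y axis (scaled FPKM, log axis with a range of its own per gene), the embryonic stage on the x axis, circles and triangles for the 2 recovered libraries and a line through the stage means. Anxa4 is at 6.08 FPKM at E11.5 and 160.5 at E18.5, Anxa13 peaks at 20.1 FPKM at E15.5, Anxa1 is lowest at E15.5, and Anxa3 is low at E13.5 and E15.5.

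Differences between stages were read in 2 ways. A rule of size called a gene when log2(scaled FPKM + 1) differed by at least 1 and the higher level was at least 5 FPKM; it carries no test. The second reading was limma on log2(scaled FPKM + 1) of the 8 libraries, with Benjamini-Hochberg adjustment over 14073 genes at 0.05. Adding 1 to each level understates the change of low genes. With 2 close libraries per stage limma called most genes, so the shares called among all genes are given beside the counts.

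Between E11.5 and E13.5 the family changed its leading member: Anxa4 rose steeply, Anxa13 and Anxa7 rose from low levels, and Anxa5 and Anxa3 fell. By the rule of size 2 of 9 annexins were higher at E13.5 and 1 was lower, where 5.78% and 5.74% of all genes were. Anxa4 was 11.3-fold higher, from 6.08 ± 0.243 to 68.5 ± 1.63 FPKM (limma log2 difference 3.30, SE 0.0396, adjusted p = 2.14e-08). Anxa7 was 2.33-fold higher, from 3.68 ± 0.186 to 8.56 ± 0.308 FPKM (limma log2 difference 1.03, SE 0.0550, adjusted p = 7.28e-06). These 2 members passed the rule of size. With every stage set to the same FPKM total, 1 annexin was higher and 2 were lower by that rule. Anxa13 was 16.5-fold higher but reached only 2.03 ± 0.294 FPKM (limma log2 difference 1.43, SE 0.106, adjusted p = 3.27e-05). Anxa5, the lower member by the rule, fell 2.16-fold from 84.1 ± 1.12 to 38.9 ± 2.12 FPKM (limma log2 difference -1.09, SE 0.0404, adjusted p = 1.47e-06). Anxa3 fell 10.3-fold from 4.52 ± 0.150 to 0.438 ± 0.0911 FPKM, below the level minimum of the rule (limma log2 difference -1.94, SE 0.0828, adjusted p = 2.72e-06).

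By limma 5 annexins rose and 4 fell, against 32.1% and 36.9% of all genes. The smaller rises were those of Anxa6 (0.57, adjusted p = 2.60e-05) and Anxa11 (0.85, adjusted p = 4.34e-04), and the smaller falls those of Anxa2 (-0.27, adjusted p = 0.00279) and Anxa1 (-0.43, adjusted p = 0.0218; limma log2 differences). The Anxa1 call was lost when 0.1 was added in place of 1 (limma adjusted p = 0.138) and, at limma adjusted p of 0.0846, 0.107 and 0.113, without E11.5 library 1, E11.5 library 2 or E13.5 library 2. All 9 annexins had libraries that did not overlap between the stages, as did 85.6% of all genes tested. The median log2 difference of the 9 was 0.57, beside -0.03 over the 14838 genes. The falls of Anxa1, Anxa2, Anxa3 and Anxa5 went with lower markers of other cells: 8 of 11 measured mesenchyme markers, 5 of 9 of neurons and neural crest and all 10 erythroid markers passed the rule of size as lower, while 10 of 12 epithelial markers passed it as higher. By limma 8 of 9 leukocyte markers fell and C1qa rose, and 4 of 5 mesothelium markers fell. By size 3 of these leukocyte markers and 1 of these mesothelium markers were lower, and C1qa was higher. The part of these cells in these differences was not tested.

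Between E13.5 and E15.5 Anxa13 rose, and Anxa1 and Anxa11 fell from low levels. By the rule of size only Anxa13 was higher and no annexin was lower, where 3.64% and 1.48% of all genes were. Anxa13 rose 9.89-fold, from 2.03 ± 0.294 to 20.1 ± 1.89 FPKM (limma log2 difference 2.80, SE 0.106, adjusted p = 6.89e-06). Anxa1 fell 6.32-fold, from 3.52 ± 0.385 to 0.557 ± 0.282 FPKM, again below the level minimum (limma log2 difference -1.55, SE 0.127, adjusted p = 1.24e-04). By limma 5 annexins rose and 2 fell, against 29.8% and 27.6% of all genes. Beside Anxa13 the rises were small: Anxa7 0.50, adjusted p = 4.10e-04, Anxa4 0.33, adjusted p = 6.34e-04, Anxa5 0.32, adjusted p = 6.95e-04 and Anxa2 0.18, adjusted p = 0.0177 (limma log2 differences). Anxa11 fell 2.01-fold, from 1.13 ± 0.269 to 0.562 ± 0.0283 FPKM (-0.44, adjusted p = 0.0127, limma). The limma call of Anxa2 was lost without E13.5 library 1, E15.5 library 1 or E15.5 library 2 (adjusted p = 0.0839, 0.0798 and 0.0514), and that of Anxa11 without E13.5 library 2 or E15.5 library 2 (adjusted p = 0.0628 and 0.0556).

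The direction of the 4 small rises depended on the scaling. With every library set to the same FPKM total, which moved the median of all genes by -0.41, the log2 differences of Anxa2, Anxa4, Anxa5 and Anxa7 were -0.43, -0.29, -0.29 and -0.07, and limma called 1 rise, that of Anxa13, and 6 falls. In the same step the summed level of 12 acinar markers, which are part of that total, went from 4802 to 108566 FPKM, and 11 of the 12 were higher by the rule of size. Limma did not call Anxa3 (0.01, adjusted p = 0.947) or Anxa6 (-0.03, adjusted p = 0.558), but with equal totals Anxa6 fell (-0.64, limma adjusted p = 1.63e-05). Libraries did not overlap for 7 of the 9 annexins and 78.9% of all genes. The median difference of the 9 was 0.18, beside 0.00 over all genes.

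Between E15.5 and E18.5 most of the family rose, led in level by Anxa5, and Anxa13 alone fell by limma. By the rule of size 4 of 9 annexins were higher and 1 was lower, where 6.29% and 5.55% of all genes were. Anxa5 rose 8.67-fold, from 49.0 ± 0.523 to 425 ± 4.34 FPKM (limma log2 difference 3.09, SE 0.0404, adjusted p = 1.95e-07). Anxa2 rose 3.29-fold, from 43.3 ± 0.639 to 143 ± 1.76 FPKM (limma log2 difference 1.70, SE 0.0491, adjusted p = 1.07e-06). Anxa6 rose 2.63-fold, from 40.4 ± 0.732 to 107 ± 1.61 FPKM (limma log2 difference 1.38, SE 0.0402, adjusted p = 1.12e-06). These widely expressed annexins were joined by Anxa3, which rose 17.8-fold from 0.445 ± 0.00326 to 7.91 ± 0.792 FPKM (limma log2 difference 2.62, SE 0.0828, adjusted p = 1.40e-06). The epithelial pair parted: Anxa4 rose 1.86-fold to 160.5 ± 4.11 FPKM, short of the rule of size (limma log2 difference 0.89, SE 0.0396, adjusted p = 4.63e-06). Anxa13 fell 3.18-fold, from 20.1 ± 1.89 to 6.31 ± 0.634 FPKM (limma log2 difference -1.53, SE 0.106, adjusted p = 2.95e-05).

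By limma 7 annexins rose and 1 fell, against 38.3% and 31.4% of all genes. Anxa1 rose 6.51-fold to 3.62 ± 0.157 FPKM (1.58, adjusted p = 5.74e-05) and Anxa11 rose 2.55-fold to 1.43 ± 0.155 FPKM (0.64, adjusted p = 0.00183; limma log2 differences). Anxa7 did not pass (0.03, adjusted p = 0.694, limma), but with equal totals it rose (0.19, limma adjusted p = 0.0222), making 8 rises. Libraries did not overlap for 8 of the 9 and 83.4% of all genes. The median difference of the 9 was 1.38, beside 0.04 over all genes. In the same step all 12 endocrine markers and 7 of 9 measured duct markers were higher by the rule of size. The endocrine sum went from 3084 to 34853 FPKM and the duct sum from 2034 to 17695. Most of the duct sum was Spp1, which gave 1741 FPKM of it at E15.5 and 16964.5 at E18.5. Of the acinar markers 5 were higher and 5 lower, with a sum that went from 108566 to 58388 FPKM. Of 9 measured leukocyte markers 2 were higher and 1 lower by size, whereas limma called 7 of them as rising and 1 as falling. The mesenchyme sum went from 48.7 to 85.6 FPKM, and of 10 mesenchyme markers tested by limma 6 rose and 1 fell. Limma tested 2 platelet markers and called both as rising. Pf4 went from 0.240 to 3.68 FPKM and Gp9 from 0.373 to 7.49 FPKM. Of 5 measured mesothelium markers only Krt19, which is also on the duct and epithelium lists, was higher by the rule of size. By limma 3 of the 5 rose and none fell. Beside Krt19 these were Msln, from 0.0791 to 2.44 FPKM, and Gpm6a, from 0.228 to 0.692 FPKM. Wt1, which reached 1 FPKM at no stage, was at 0.0441 FPKM at E18.5. The part of these cells in the annexin differences was not tested.

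Across the whole interval, E18.5 against E11.5, 6 of 9 annexins were higher by the rule of size and none was lower, where 10.4% and 7.55% of all genes were. Anxa4 was 26.4-fold higher (limma log2 difference 4.51, SE 0.0396, adjusted p = 5.28e-09). Anxa13 was 51.2-fold higher, a ratio that rests on 2 and 4 reads at E11.5 (limma log2 difference 2.70, SE 0.106, adjusted p = 1.15e-06). Anxa5 was 5.05-fold, Anxa6 3.88-fold, Anxa7 3.47-fold and Anxa2 3.11-fold higher. By limma 8 annexins rose and Anxa1 alone fell (-0.39, adjusted p = 0.0275), against 37.5% and 38.1% of all genes. The fall of Anxa1 was not called with 0.1 added (limma adjusted p = 0.161) or without any 1 of the 4 libraries compared (0.0695 to 0.123), and the rise of Anxa3 (0.69, adjusted p = 2.72e-04) was not called with equal totals (limma adjusted p = 0.0802). Libraries did not overlap for all 9 annexins and 87.7% of all genes. The median difference was 1.62, beside 0.00 over all genes.

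**Figure D3:**
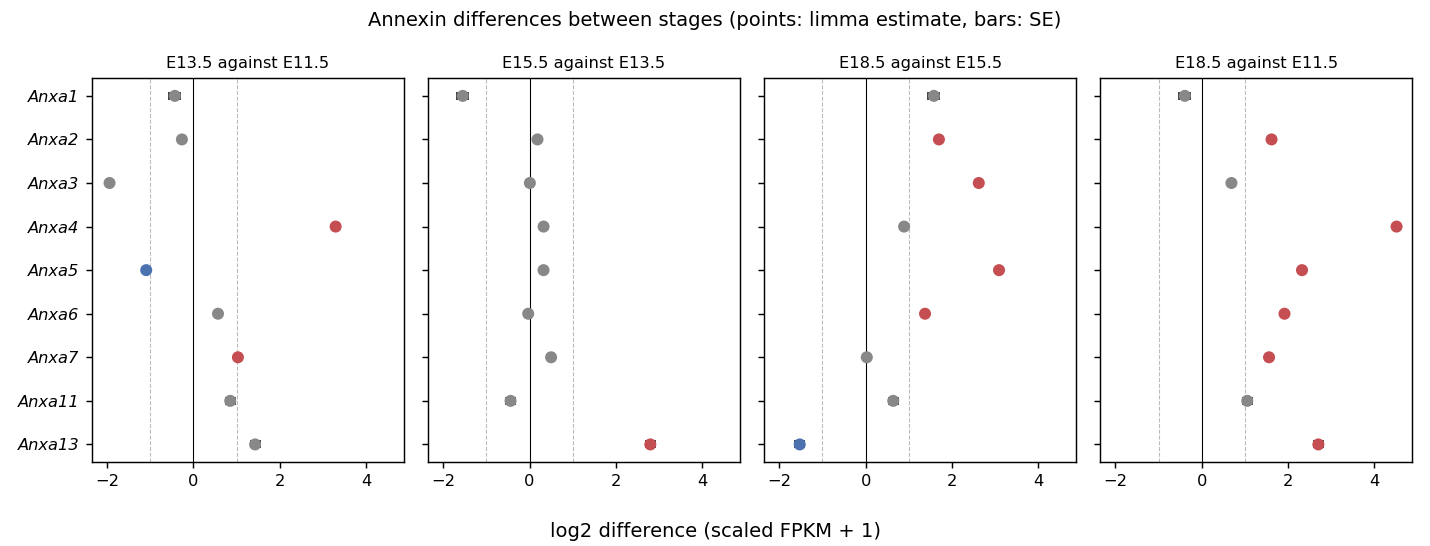
Points give the limma estimate of each annexin's difference in log2(scaled FPKM + 1) for the 4 comparisons, with bars for the limma standard error, mostly smaller than the points, and dashed lines at -1 and 1. Red points were higher and blue points lower by the rule of size, grey ones neither; Anxa5 lies at -1.09 in the first step and at 3.09 in the third.

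Anxa1, Anxa2, Anxa3 and Anxa5 had their lowest level at E13.5 or E15.5, below both ends of the series, and Anxa4 and Anxa7 had ascending scaled levels, except that with equal totals both were lower at E15.5 than at E13.5. Likeness was measured as the root mean square difference of centred log2(scaled FPKM + 1) over the 4 stages. The added 1 flattens low genes, so a small value does not mean equal folds. Among pairs of annexins it was smallest for Anxa2 and Anxa6 (0.318). Among 7719 named protein-coding genes that reached 5 FPKM, the nearest to Anxa5 were Ptgs1 (0.0496), Ppp1r1a (0.133) and Frzb (0.152). Ptgs1 was much lower than Anxa5, at 1.78, 0.264, 0.529 and 11.7 FPKM from the youngest to the oldest stage, and its folds were larger. Those nearest to Anxa4 were Slc44a3 (0.119), Erich5 (0.187) and Tle6 (0.202). Those nearest to Anxa13 were Tsga10ip (0.0820), Dhx34 (0.218) and Edem2 (0.228). Those nearest to Anxa2 were Ddit4l (0.0570), Rab20 (0.0882) and Shroom1 (0.0961), and those nearest to Anxa6 were Fzd9 (0.0226), Stat3 (0.0577) and Arhgef3 (0.0642). Those nearest to Anxa3 were Lpl (0.140), Fam20a (0.184) and Enho (0.184), and those nearest to Anxa7 were Cib1 (0.0253), Akip1 (0.0518) and Mtln (0.0616). The measure rests on 4 points per gene.

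The S100 proteins are small EF-hand calcium sensors. S100a10, which binds Anxa2, went from 50.9 ± 2.39 FPKM (E11.5) through 16.3 ± 1.42 (E13.5) and 12.6 ± 0.0845 (E15.5) to 68.2 ± 1.41 (E18.5). It fell to E13.5 and to E15.5 and rose to E18.5 (limma log2 differences -1.58, adjusted p = 1.89e-06; -0.36, adjusted p = 0.00309; 2.35, adjusted p = 7.44e-07). The ratio of Anxa2 to S100a10 levels, both per length, went from 0.901 (E11.5) through 2.32 (E13.5) and 3.44 (E15.5) to 2.09 (E18.5). Its library values at E11.5, 0.963 and 0.843, lay below those of every later stage. S100a11, which binds Anxa1, went from 81.0 ± 4.71 FPKM (E11.5) through 181 ± 16.8 (E13.5) and 209 ± 10.6 (E15.5) to 485 (E18.5), but 41.1% of its 50-base windows occur in other transcripts such as Gm12854, so its level is uncertain. S100a6, which binds Anxa11, was between 0.866 and 1.17 FPKM at all stages, with no limma call.

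Of 17 listed S100 genes 11 reached 1 FPKM at any stage. By the rule of size 3, 0, 5 and 5 of these were higher in the 4 comparisons in the order above, and 1, 0, 0 and 0 lower. That rule called 5.78%, 3.64%, 6.29% and 10.4% of all genes as higher and 5.74%, 1.48%, 5.55% and 7.55% as lower. By limma 4 rose and 3 fell to E13.5, 4 rose and 1 fell to E15.5, 8 rose and none fell to E18.5, and 8 rose and 2 fell over the whole interval. Among all genes limma called 32.1% and 36.9% as rising and falling to E13.5, 29.8% and 27.6% to E15.5, 38.3% and 31.4% to E18.5, and 37.5% and 38.1% over the whole interval. The medians of the 11 were 0.17, 0.20, 1.28 and 1.79; with equal totals the second was -0.19. S100a16 went from 9.28 ± 0.618 FPKM (E11.5) through 45.1 ± 1.10 (E13.5) and 60.8 ± 1.36 (E15.5) to 115 ± 6.35 (E18.5). S100a1, known from muscle as a calcium sensor, had library means between 5.09 FPKM at E11.5 and 75.8 at E18.5, and S100b went from 0.0188 ± 0.0266 FPKM (E11.5) through 0.148 ± 0.0400 (E13.5) and 2.93 ± 0.218 (E15.5) to 15.9 ± 0.729 (E18.5).

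**Figure D4:**
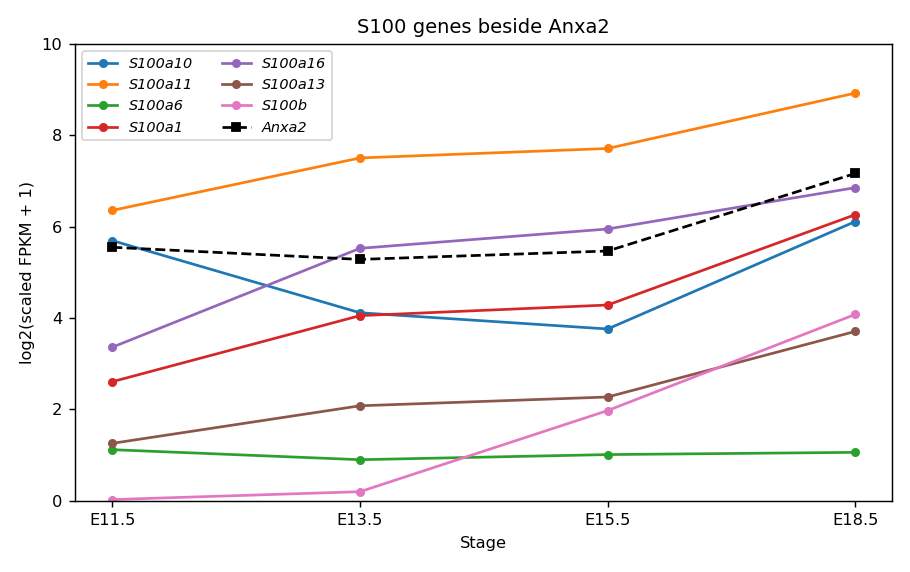
Points joined by lines give the stage means, as log2(scaled FPKM + 1), of 7 S100 genes (solid) and Anxa2 (dashed) at the 4 stages. On the linear scale Anxa2 stays between 38.0 and 45.8 FPKM up to E15.5, while S100a10 goes from 50.9 to 12.6.

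A further list held the EF-hand partners of Anxa7 and Anxa11 with related EF-hand genes (Gca and the calpain genes Capn1, Capn2 and Capns1), ESCRT genes, and genes tied to membrane repair (Ahnak, Trim72 and Mcoln1). Pdcd6, which encodes ALG-2, went from 40.9 ± 0.617 FPKM (E11.5) through 65.5 ± 0.271 (E13.5) and 67.6 ± 0.0199 (E15.5) to 69.3 ± 2.56 (E18.5). Sri, which encodes sorcin, went from 18.9 ± 0.175 FPKM (E11.5) through 33.8 ± 0.642 (E13.5) and 33.7 ± 1.28 (E15.5) to 40.9 ± 1.18 (E18.5). Both were higher at E13.5 than at E11.5 (limma log2 differences 0.67, adjusted p = 5.71e-06 and 0.80, adjusted p = 5.26e-06), as Anxa7 was. Of 21 listed genes 19 reached 1 FPKM. The rule of size called 5.78%, 3.64%, 6.29% and 10.4% of all genes as higher in the 4 comparisons and 5.74%, 1.48%, 5.55% and 7.55% as lower. Past this rule, 1, 1, 0 and 3 genes of the list were higher in the same order and 0, 0, 2 and 0 lower. These were Gca at E13.5 and Capns1 at E15.5, then Capns1 and Chmp4c, both lower, at E18.5, and Gca, Sri and Chmp2a over the whole interval. With equal totals, 5 of these 8 counts moved: 0 were higher and 3 lower at E15.5, 1 was higher at E18.5 against E15.5, and 1 was higher and 2 lower over the whole interval. Limma tested 18 of them: 12 rose and 6 fell to E13.5, 4 rose and 8 fell to E15.5, 12 rose and 3 fell to E18.5, and 12 rose and 5 fell over the whole interval. Limma called 32.1% of all genes as rising and 36.9% as falling to E13.5, and 29.8% and 27.6% to E15.5. To E18.5 these shares were 38.3% and 31.4%, and over the whole interval 37.5% and 38.1%. The list's median log2 differences were 0.27, 0.00, 0.24 and 0.52, the last being -0.02 with equal totals.

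Receptors of Anxa1 and the plasminogen system that Anxa2 takes part in were mostly low, with 4 of 9 genes reaching 1 FPKM at any stage. Plat, which encodes tissue plasminogen activator, went from 9.88 ± 0.202 FPKM (E11.5) through 0.226 ± 0.0243 (E13.5) and 0.141 ± 0.0238 (E15.5) to 0.882 ± 0.130 (E18.5) and was the 1 gene of this list past the rule of size, lower at E13.5 and E18.5 than at E11.5. Plaur, the urokinase receptor, was at 0.518 FPKM at E15.5, its lowest stage, and at 4.999 FPKM at E18.5, its highest. This difference (log2 difference 1.98, limma adjusted p = 4.96e-05) missed only the rule's minimum of 5 FPKM. Plg, which encodes plasminogen, went from 3.96 FPKM at E11.5 to 0.0105 at E18.5, also below that minimum (limma adjusted p = 4.98e-07). Plgrkt, a plasminogen receptor, went from 12.1 ± 0.0136 FPKM (E11.5) through 12.2 ± 0.0615 (E13.5) and 14.8 ± 1.68 (E15.5) to 17.2 ± 0.394 (E18.5). With equal totals 2 genes of the list were lower at E13.5 and at E18.5 than at E11.5. The rule of size called 5.74% and 7.55% of all genes as lower in these 2 comparisons. The 5 genes below 1 FPKM at every stage included the formyl peptide receptors of Anxa1. Limma tested the other 4: 0 rose and 2 fell to E13.5, and 1 rose and 1 fell to E15.5. To E18.5 3 rose and 1 fell, and over the whole interval 2 rose and 2 fell. Among all genes 32.1% rose and 36.9% fell to E13.5, and 29.8% and 27.6% to E15.5. These shares were 38.3% and 31.4% to E18.5, and 37.5% and 38.1% over the whole interval.

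Calcium and lipid binders with C2 domains, the other large class of such proteins, were compared as a list of 34 genes, of which 18 reached 1 FPKM. Of these, 2, 1, 3 and 5 were higher by size in the 4 comparisons and 1, 1, 0 and 1 lower. That rule called 5.78%, 3.64%, 6.29% and 10.4% of all genes as higher and 5.74%, 1.48%, 5.55% and 7.55% as lower. With equal totals 0 of the list were higher and 3 lower at E15.5. By limma 8 rose and 7 fell to E13.5, 6 rose and 5 fell to E15.5, 14 rose and 2 fell to E18.5, and 10 rose and 5 fell over the whole interval. To E13.5, 32.1% of all genes rose and 36.9% fell, and to E15.5 29.8% rose and 27.6% fell, so the list's counts in these steps lay near the background. To E18.5, 38.3% of all genes rose and 31.4% fell, and over the whole interval 37.5% rose and 38.1% fell. The medians were 0.04, -0.09, 0.45 and 0.30, and the first and last were -0.02 and -0.19 with equal totals. Sytl4, which encodes a granule-docking protein of endocrine cells, went from 0.152 ± 0.124 FPKM (E11.5) through 0.667 ± 0.00459 (E13.5) and 2.15 ± 0.252 (E15.5) to 16.8 ± 0.756 (E18.5). Syt13 went from 20.4 ± 0.786 FPKM (E11.5) through 26.2 ± 0.388 (E13.5) and 16.6 ± 1.45 (E15.5) to 91.3 ± 0.843 (E18.5). Syt11 went from 44.3 ± 0.258 FPKM (E11.5) through 2.95 ± 0.416 (E13.5) and 1.57 ± 0.239 (E15.5) to 3.23 ± 0.0636 (E18.5), highest at E11.5. Cpne8, a copine, had 1.02 FPKM at E11.5 and 12.7 at E15.5.

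The mouse annexins outside the 9 were low. Anxa8 was at 1.44 ± 0.149 FPKM at E11.5 and 0.186 ± 0.130 at E13.5, was listed at 0 in both libraries at E15.5, and was at 0 and 0.0414 FPKM in the E18.5 libraries. Anxa9, whose protein lacks calcium binding in its core, went from 0.761 ± 0.220 FPKM (E11.5) through 2.15 ± 0.358 (E13.5) and 2.18 ± 0.164 (E15.5) to 3.82 ± 0.412 (E18.5). Anxa10 was listed at 0 at E11.5 and did not exceed 0.545 FPKM, its mean at E18.5. None reached 5 FPKM at any stage, so the rule of size could call none of them. By limma Anxa9 rose to E13.5 (log2 difference 0.84, adjusted p = 9.66e-04) and from E15.5 to E18.5 (0.60, adjusted p = 0.00472). Anxa8 fell to E13.5 (limma log2 difference -1.04, adjusted p = 9.80e-05). Neither was called by limma between E13.5 and E15.5, and Anxa10 was not tested.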

How the data were processed

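RNA was extracted with TRI reagent, per the labels' protocols, and HISAT2 2.0.5 is named in the submitters' processing notes; the sources used here name no counter. The authors deposited 1 mean FPKM per gene and stage, for 54532 gene IDs, of which 54495 matched a GENCODE M21 symbol; every deposited column was used. From the M21 exon length of each gene, the pair of whole read numbers that gives the printed mean was solved, to the last of 10 printed digits. For 719 genes, Anxa1 among them, another exon length was used, found from the values, and genes with many reads were searched only among pairs within 25% of each other. Of the attempted genes, 95.0% to 95.3% were split per stage. That each mean holds 2 libraries rests on the values alone, and the recovered read numbers are no counts of the authors, so no count test was run. Levels were scaled per stage by median-of-ratios factors (0.988, 1.03, 1.03 and 0.962).

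Stages were compared by a rule of size and by limma 3.58.1 with its trend option in R, with Python for the other steps. The rule and limma were also run on simulated data with an assumed, fixed spread between libraries. Those runs do not cover the spread between embryos. Of 14838 named genes that reached 1 FPKM somewhere, limma took the 14073 split in all 8 libraries, so calls depend on that recovery. Genes named as partners were those with a fixed role, the largest differences past the rule or the highest levels in their list. The members and lists were chosen with earlier results of these data known. Alternatives were another scaling, pseudocount of 0.1, fold of 1.5, level minimum of 1 FPKM, and each library left out. The rule of size was not tried without a level minimum. SDs cover the spread between 2 libraries, and counting error alone sets the precision of genes on few reads.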

Additional observations from a re-analysis of the deposited data

How the results depend on the processing

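No paired analysis was possible because each stage has 1 labelled sample and the numbers of the recovered libraries pair nothing. By the rule of size, 1 annexin was higher and 2 were lower at E13.5 with every stage set to the same FPKM total, and with a level minimum of 1 FPKM 2 were lower at E13.5 and 1 at E15.5; the annexins' other counts by this rule stayed within 1.5 times under the settings tried. With equal totals 5 of 8 such counts moved for EF-hand and ESCRT genes, 2 of 8 for C2-domain genes and 2 of 8 for receptor and fibrinolysis genes. Equal totals moved the median of all genes by -0.11, -0.41, 0.11 and -0.46 in the 4 comparisons. The median of the annexins was then 0.44, -0.29, 1.53 and 1.06, against 0.63 and 1.28 with no scaling for E13.5 against E11.5 and E18.5 against E15.5, and 1.95 for E18.5 against E11.5 with a pseudocount of 0.1. With equal totals limma called 1 rise and 6 falls at E15.5 against E13.5, where Anxa2, Anxa3, Anxa4, Anxa5 and Anxa7 reversed, to -0.43, -0.18, -0.29, -0.29 and -0.071, and Anxa6 was called as a fall (-0.64); Anxa7 was called as a rise at E18.5 against E15.5 (0.19). Reversed medians of other lists were -0.19 for S100 genes (E15.5 against E13.5), -0.020 for EF-hand and ESCRT genes and -0.19 for C2-domain genes (E18.5 against E11.5), and -0.017 for C2-domain genes (E13.5 against E11.5); these settings for other lists were chosen after seeing the data. With 1 library left out, a lone library being assumed to vary like those of other stages, the falls called at E15.5 against E13.5 ranged from 1 to 2 and those at E18.5 against E11.5 from 0 to 1, also 0 with a pseudocount of 0.1. Uncalled differences changed sign, with leave-one-out ranges of -0.056 to 0.073 for Anxa3 and -0.076 to 0.016 for Anxa6 at E15.5 against E13.5, and -0.011 to 0.065 for Anxa7 at E18.5 against E15.5. The causes were not tested. Depth limits Anxa13 and Anxa11 at E11.5 and Anxa1 at E15.5 most.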
